A study of Mus musculus with 5 samples.

Results

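Myh15 is a gene on chromosome 16 of the mouse, at chr16:49057400-49199563 (mm10; the annotation is that of GRCm38.p6, the same build), 142164 bases long and read on the plus strand. Its contacts with a bait in the Dppa2/4 domain were followed by 4C-seq on the 2 alleles of hybrid embryonic stem cells. The members are the 5-kb windows of the deposited table that overlap the gene or the 5 kb on either side of it. There are 31 of them, from 49050001 to 49205000, of 19632 windows on chromosome 16 and 545079 in the table. The 150 kb on each side, 30 windows each, served as context. Myh15 was chosen by the contact values of these same 4 columns, in which an earlier reading had found more on the 129 allele, so its allele difference is described here and carries no test.

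The series holds 5 samples, and the 2 used here are the hybrid clones A6 and E2, each a single clone with 1 library. Both are mouse embryonic stem cells labelled cas/129, kept in medium with 2i and LIF, with a CAST chromosome (Mus castaneus) and a 129 chromosome (the svim column of the table). Both carry CRISPR-mediated deletions of 3 labelled intervals of chromosome 16, at 48308399 to 48311882, 48396806 to 48437301 and 48581359 to 48620367. The labels give no allele for the deletions. In clone A6 the interval from 48396806 had 26 own reads on 129 against 12236 on CAST, and in clone E2 67 against 18179. The interval from 48581359 had 1 against 6766 (A6) and 6 against 12501 (E2). The interval from 48308399 had 1 against 2 in A6 and 0 on both alleles in E2, too few to show an allele difference. No hybrid clone without the deletions was analysed here, so the origin of an allele (129 or CAST) and the loss of the intervals cannot be told apart. The other 3 samples are inbred libraries in mm9 windows from a different bait and were not used here.

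4C-seq fixes chromatin, cuts it with a restriction enzyme (here HindIII) and ligates ends that lie close together. A second cut (here DpnII) and an inverse PCR from the bait then let the partners of 1 site be sequenced, so a read counts a ligation between the bait and another fragment. Contacts fall off steeply with distance along the chromosome, and genes of a domain often share the contact level of their surroundings. Myh15 encodes a myosin heavy chain of the sarcomeric type, the motor subunit of thick filaments. It is the mammalian relative of the ventricular myosin gene of the chicken. Dppa2 and Dppa4, next to the bait, encode chromatin-associated proteins of pluripotent cells. Expression was not measured in these libraries.

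The bait primers of the hybrid samples are shown because the values below count ligations to the bait fragment. They are the bait sequences that the labels list. In the forward primer, capitals mark the 4 bases at the 3′ end that are the start of the HindIII sequence AAGCTT. The reverse primer ends in the first 2 bases of that sequence, left in small letters.
Forward bait primer: tttgggattttggagtgAAGC
Reverse bait primer: ctgctggacttgtcaactgaa
The protocol in the same labels names other primers, and no genome sequence was used here to place either pair. The table lists no windows from 48320001 to 48370000, and the centre of this gap, at 48345000, was taken as the bait. From there the start of Myh15 lies 712.4 kb away and its end 854.563 kb. The intervals from 48396806 and from 48581359, together 79.505 kb, lie in between, so a chromosome without them has the gene start 632.895 kb from the bait.

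The promoter of Myh15 is shown because it marks the start of the gene on the profiles below, and because it can be searched for both enzymes' sequences. It is the RefSeq sequence of GRCm38.p6 at chr16:49057150-49057449, plus strand, from 250 bases before to 50 after the annotated start, with the DpnII sequence GATC in capitals.
Myh15 promoter: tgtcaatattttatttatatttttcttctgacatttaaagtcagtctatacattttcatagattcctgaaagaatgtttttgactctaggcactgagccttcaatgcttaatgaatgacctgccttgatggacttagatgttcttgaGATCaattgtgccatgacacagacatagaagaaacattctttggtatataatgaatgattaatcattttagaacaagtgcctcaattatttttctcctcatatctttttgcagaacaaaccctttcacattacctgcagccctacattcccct
It holds GATC 1 time, at base 148 of the stretch, and AAGCTT 0 times. Both sequences read the same on either strand and do not overlap each other. Of 32851 promoters of the same length, 48.0% hold GATC and 7.45% hold AAGCTT. The window over this promoter, 49055001 to 49060000, held 0 reads of its own in all 4 columns, while the window before it, 49050001 to 49055000, was among the most read of the gene.

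Contacts are given on 2 scales. The deposited values are RPM, which are reads scaled to the total of their column, averaged by the authors over 30 neighbouring windows, or 150 kb. Own reads are whole reads of a single window, obtained by undoing that average, and own RPM is the same divided by the column's total. For A6 the 129 column totalled 1960438 reads and the CAST column 1321005, and for E2 2423179 and 1613268, so 1 read is worth 0.41 to 0.76 RPM. Across each whole library, 59.7% of the reads of A6 and 60.0% of those of E2 were on 129. From 23.7 to 24.7% of each column's reads fell on chromosome 16.

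Over Myh15 the bait contacts were higher on the 129 allele in both clones. In A6 the mean deposited level was 84.2 RPM on 129 against 27.4 RPM on CAST, and in E2 103 RPM against 23.5 RPM. The means over the clones were 93.4 ± 13.0 RPM on 129 (SD, n = 2) and 25.5 ± 2.73 RPM on CAST. The log2 ratio of 129 to CAST came to 1.62 for A6 and 2.13 for E2, with a mean of 1.87 ± 0.36 (SD, n = 2), or a fold of 3.07 and 4.36. In order of level the columns ran E2 129, A6 129, A6 CAST, E2 CAST. The share of other stretches with both 129 columns above both CAST columns was not counted. Of 61 other stretches of this length up to 5 Mb from the bait, 54.1% had a higher own RPM on 129 in both clones. The order is therefore not taken as particular to Myh15. The clones of 1 allele differed by a factor of 1.22 on 129 and 0.859 on CAST (E2 over A6), less than the distance between the alleles. With 2 clones a paired exact permutation test could not fall below p = 0.5 (two-sided). The gene was chosen on both clones, so their common direction is part of the choice and no replication of it.

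Every one of the 31 deposited windows was higher on 129 in both clones. The same holds for 56.7% of the windows up to 5 Mb from the bait, and 38.9% of those on all of chromosome 16. It also holds for all 30 windows of the 150 kb before the gene and all 30 of the 150 kb after it. In 28 of the 31 windows the level was at least 2-fold higher on 129 in both clones, against 14.8% of windows up to 5 Mb and 18.5% on the chromosome. This count was 7 of 30 before the gene and 6 of 30 after it. Neighbouring windows share most of their reads through the running mean, so 31 windows are far fewer than 31 measurements. In the 129 columns the deposited level ran from 50.4 to 111 RPM in A6 and from 59.3 to 144 RPM in E2. On CAST it ran from 18.9 to 48.2 RPM and from 11.8 to 36.6 RPM. Within a clone the lowest 129 window thus lay above the highest CAST window, in A6 narrowly, at 50.4 against 48.2 RPM. How many other stretches show this was not counted. It does not hold for own reads, where the lowest 129 window held 0 and some windows were higher on CAST.

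The deposited profile along the gene had a broad rise on 129 near the start, and its lowest levels on both alleles toward the end. Of the gene's own 129 reads, 7.45% (A6) and 8.10% (E2) lay from 49055001 to 49105000. From 49105001 to 49150000 lay 53.1% and 60.1%, so the running mean places the rise nearer the start than the reads do. In A6 the highest 129 window began at 49095001 (111 RPM) and in E2 at 49070001 (144 RPM). The lowest 129 window began at 49190001 in both clones, at 50.4 RPM and 59.3 RPM. On CAST the lowest deposited level began at 49150001 in both clones, at 18.9 RPM in A6 and 11.8 RPM in E2. The highest CAST window was the last of the gene in A6, at 49200001 (48.2 RPM), and the one at 49070001 in E2 (36.6 RPM). At the edge before the gene, the window at 49050001, just inside the limits, had 83.6 RPM on 129 and 22.8 RPM on CAST in A6. The next window outside, at 49045001, had those same values. At the other edge, the window just outside, at 49205001, had 84.9 RPM and 47.4 RPM in A6, and 77.9 RPM and 31.9 RPM in E2.

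**Figure D1:**
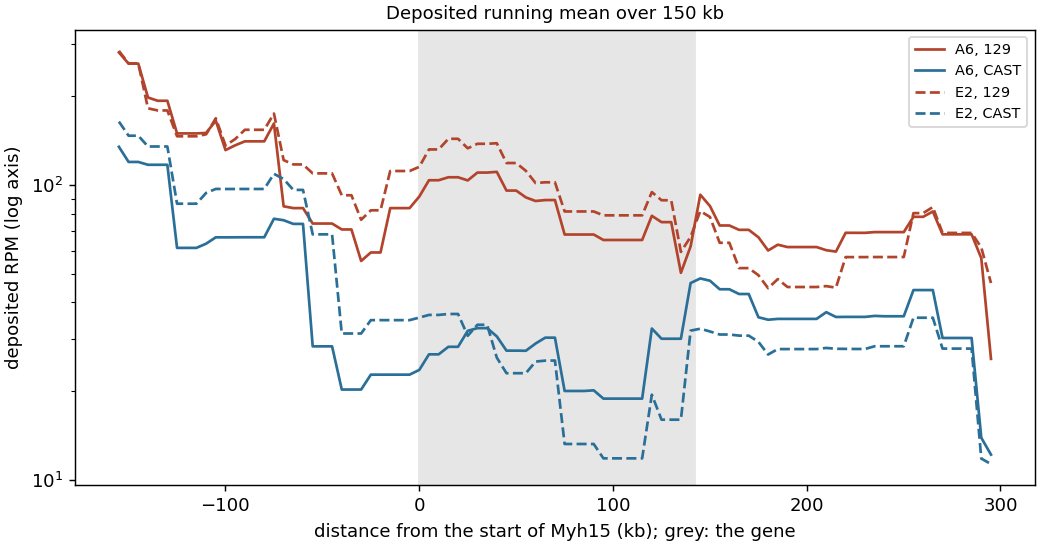
Deposited RPM (log axis) of the 4 allele columns against distance from the start of Myh15 in kb, for the gene (grey) and 150 kb on both sides, with clone A6 solid and clone E2 dashed. Within each clone the 129 line lies above the CAST line across the gene, by at least 2-fold in 28 of its 31 windows in both clones.

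Because each deposited value averages 30 windows, the gene's mean draws on 300 kb, from 48975001 to 49275000. The share of the mean that came from reads inside the gene limits was, for A6, 82.9% of the 129 value and 77.7% of the CAST value, and for E2 79.7% and 69.8%. Reads before the gene gave 11.9% and 8.40% in A6, and 16.4% and 19.4% in E2. Reads after it gave 5.18% and 13.9% in A6, and 3.90% and 10.7% in E2. A single window, 49110001 to 49115000, gave 26.2% of the 129 mean in A6 and 26.0% in E2. On CAST the heaviest windows were 49150001 to 49155000 in A6 (20.9%) and 49050001 to 49055000 in E2 (26.7%). The gene limits include the window before the annotated start. The windows over the gene itself gave, for A6, 70.0% of the 129 value and 58.2% of the CAST value, and for E2 69.2% and 43.1%. On CAST of E2 more therefore came from outside the gene than from it.

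Counted in own reads, A6 had 5234 on 129 against 1204 on CAST over the gene, and E2 7433 against 1231. So 81.3% of the gene's reads were on 129 in A6 (80.3 to 82.2%, Wilson interval at 95%), and 85.8% were in E2 (85.0 to 86.5%). Intervals cover counting error only and take each read as separate. Whether copies made by PCR were removed is not given in the sources used here. Scaled to the columns, A6 had a mean of 86.1 own RPM per window on 129 against 29.4 on CAST, and E2 99.0 against 24.6. This gave a log2 ratio of 1.55 for A6 and 2.01 for E2, with a mean of 1.78 ± 0.32 (SD, n = 2), within 1 SD of the deposited ratio. With the gene alone, without the 5 kb on either side, it was 2.19 ± 0.61.

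These reads sat in few windows. On 129, 14 of the 31 windows held any read in each clone, and on CAST 10 did in A6 and 12 in E2. The 3 most read windows held 65.1% of the gene's 129 reads in A6 and 65.7% in E2, and 67.4% and 72.4% of its CAST reads. The most read window by the mean of the columns lay before the annotated start, at 49050001 to 49055000. In A6 it had 1236 reads on 129 against 410 on CAST, and in E2 1516 against 590. That is 23.6% of the 129 reads of the gene limits in A6 and 20.4% in E2, and 34.1% and 47.9% of the CAST reads. Its log2 ratios, 1.02 (A6) and 0.77 (E2), were under the ratio of the whole gene in both clones.

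The window at 49110001 to 49115000, which starts 52.6 kb into the gene, was the most read on 129. In A6 it held 1439 reads on 129, in E2 2144, and on CAST 0 in both clones. With 3 reads put in place of 0 in each CAST column, the level was 323-fold higher on 129 in A6 and 476-fold higher in E2. These folds bound the ratio only if each read is a separate event, which is not known here. One more window had this form, at 49165001 to 49170000, with 68 reads on 129 in A6, 209 in E2 and 0 on CAST in both. There the same replacement gave 15.3-fold in A6 and 46.4-fold in E2. Whether the sequence of the CAST chromosome leaves a readable fragment end in these windows was not tested.

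Windows read on 1 allele also occurred elsewhere. Counting windows with at least 50 reads on an allele in each clone (a limit chosen after the values were seen), 2 of the 11 in Myh15 were read on 129 alone. Up to 5 Mb from the bait, 15.5% were read on 129 alone (66 of 425) and 4.71% on CAST alone (20). On all of chromosome 16 the shares were 26.8% and 9.46%. In the 150 kb before the gene 1 of 10 such windows was read on 129 alone, and in the 150 kb after it 0 of 6.

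From 49125001 to 49145000, 3 windows were read on both alleles, and these were higher on 129 in both clones, by differing amounts. At 49125001 to 49130000, the reads on 129 against CAST were 463 to 34 in A6 and 269 to 34 in E2. At 49130001 to 49135000 they were 732 to 121 and 1221 to 36. At 49140001 to 49145000 they were 143 to 64 and 831 to 13. The window at 49125001 was alike in the clones, at a log2 of 3.20 and 2.40. The others had higher ratios in E2, at 4.50 against 2.03 and at 5.41 against 0.59.

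Near the start of the gene the ratios were smaller and alike in the clones. The window at 49070001 to 49075000 had 167 reads on 129 against 50 on CAST in A6, and 177 against 68 in E2, for log2 ratios of 1.17 and 0.79. The window at 49100001 to 49105000 had 223 and 99 in A6, and 425 and 167 in E2, for 0.60 and 0.76. Together with the window before the annotated start, these put the log2 ratio of the first part of the gene between 0.60 and 1.17 in both clones.

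Toward the end of the gene the clones differed in direction. At 49150001 to 49155000, A6 had 233 reads on 129 against 281 on CAST, a log2 ratio of -0.84, while E2 had 205 and 71, a ratio of 0.94. At 49185001 to 49190000 the ratios were 0.14 in A6 (105 and 64 reads) and -1.84 in E2 (45 and 107). At 49190001 to 49195000 they were -1.08 in A6 (38 and 54 reads) and 1.57 in E2 (40 and 9). In between, at 49155001 to 49160000, 129 was higher in both, with 385 and 27 reads in A6 (log2 3.26) and 347 and 134 in E2 (0.79). The last 2 windows of the gene limits held at most 2 reads in any column. So 3 of the read windows of the last part split the clones, while in the deposited profile each of them was higher on 129 in both.

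**Figure D2:**
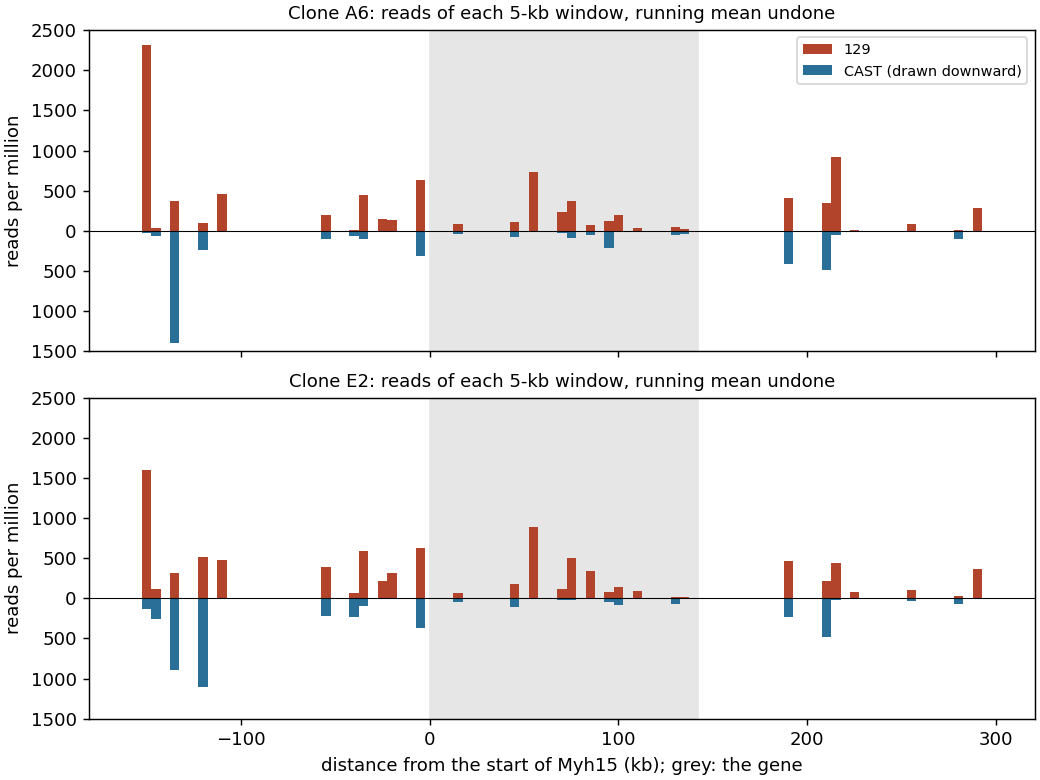
Own RPM of each 5-kb window against distance from the start of Myh15 in kb, with the running mean undone, for clones A6 and E2 (129 upward, CAST downward, gene in grey). The tallest 129 bar inside the gene, 52.6 kb from its start, has no CAST bar in either clone.

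By parts of the gene, the allele difference was largest in the middle. From 49105001 to 49150000 A6 had 2777 reads on 129 against 219 on CAST, and E2 4465 against 83, which gave log2 ratios of 3.09 and 5.16. From 49055001 to 49105000 the ratios were 0.82 and 0.77, and from 49150001 to 49200000 they were 0.39 and 0.81. The middle part held 53.1% and 60.1% of the gene's 129 reads, but 18.2% and 6.74% of its CAST reads. Leaving out the window at 49110001, the middle part still had 1338 reads against 219 in A6 and 2321 against 83 in E2, with log2 ratios of 2.04 and 4.22. In the deposited values the parts lay closer together. They gave 1.85, 1.69 and 1.34 for the 3 parts in A6, from the start of the gene, and 2.02, 2.30 and 2.32 in E2.

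Counted window by window in own reads, Myh15 was closer to its background than in the deposited values. Of the 14 windows with reads in both clones, 11 had a higher own RPM on 129 in both, or 78.6%, against 53.4% of windows up to 5 Mb from the bait and 52.4% on chromosome 16. The 11 include the windows at 49195001 and 49200001, each with 1 read against 0 in A6 and 2 against 1 in E2. This share was not computed with a read minimum. With 1 read added to each value, 4 of the 14 windows were at least 2-fold higher on 129 in both clones, or 28.6%. The background for that count was 40.5% up to 5 Mb and 42.6% on the chromosome, both above the share in the gene. In the flanks it was 5 of 10 read windows before the gene and 4 of 7 after it, again larger shares than in Myh15. Among windows with at least 10 reads over the 4 columns it was 4 of 12 in the gene, against 41.5% up to 5 Mb. The 4 windows are those at 49110001, 49125001, 49130001 and 49165001. The deposited count of 28 of 31 uses the same reads, each spread over 30 windows.

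No single window set the direction of the gene's ratio. Leaving out each read window in turn, the log2 ratio of own reads ran from 1.09 to 1.87 in A6 and from 1.52 to 2.62 in E2. The lowest value in both clones came without the window at 49110001. Without that window the mean was 1.30 ± 0.30 (SD, n = 2). Over windows where each allele had at least 10 reads in the sum of both clones, it was 1.26 ± 0.28. The highest value came without the window at 49150001 in A6 and without the one at 49050001 in E2.

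**Figure D3:**
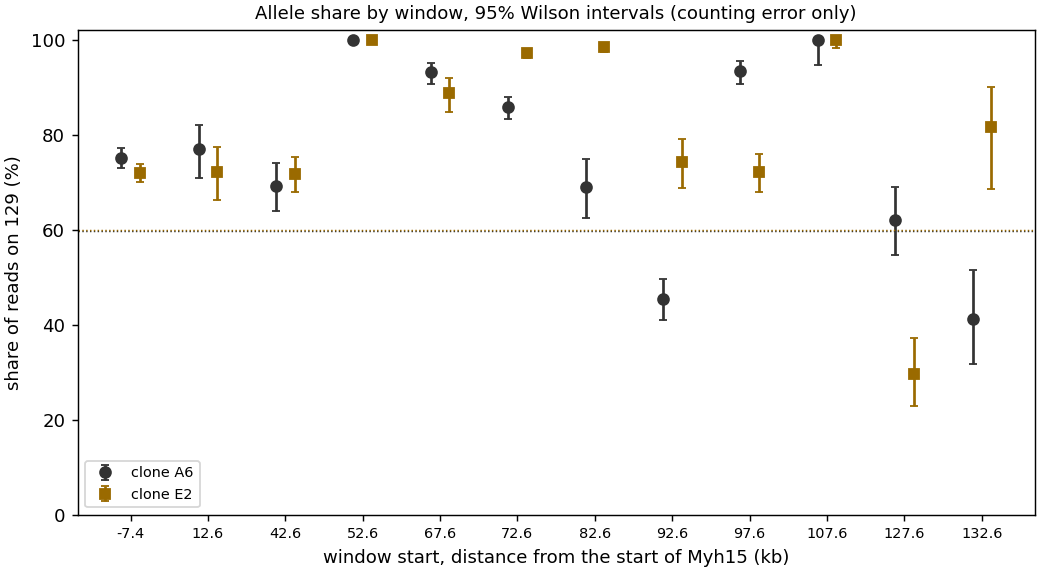
Share of own reads on 129, in percent, for the 12 windows of Myh15 with at least 10 reads, ordered by distance from the gene start in kb, for clones A6 and E2 with 95% Wilson intervals (counting error only) and dotted lines at the whole-library shares of 59.7% and 60.0%. The clones lie close together near the start and far apart at several windows after the middle.

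The order of windows was more alike between clones than between alleles. Across the windows with reads, the Pearson correlation of log2(own RPM + 1) between A6 and E2 was 0.95 on 129 (14 windows) and 0.82 on CAST (12 windows). Spearman's rho was 0.86 and 0.63. Between 129 and CAST of 1 clone the Pearson correlation was 0.54 in A6 and 0.38 in E2 (14 windows each). These are descriptions across windows that share fragment positions, and windows are not replicates.

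In deposited values the stretches beside the gene were also higher on 129, by less. In the 150 kb before the gene, which holds Cip2a, an inhibitor of the phosphatase PP2A, and Dzip3, an RNA-binding ubiquitin ligase gene, A6 had a deposited level of 132 RPM on 129 against 63.7 RPM on CAST. E2 had 145 RPM against 88.1 RPM. The log2 ratios there were 1.05 (A6) and 0.72 (E2). In the 150 kb after the gene, which holds the long noncoding RNA gene 1700026J12Rik and the pseudogene Gm5407, the deposited levels were 66.8 RPM and 35.7 RPM in A6, and 58.3 RPM and 28.2 RPM in E2. The ratios after the gene were 0.90 (A6) and 1.05 (E2). In own reads the ratios were 1.08 and 0.67 before the gene (A6 and E2), and 0.95 and 1.03 after it. With the window at 49110001 left out, the gene's own reads gave 1.09 (A6) and 1.52 (E2). The flanks also held windows read mostly on 129. Before the gene, the window at 48905001 held 4529 of 8276 reads on 129 in A6 (35 on CAST). In E2 it held 3876 of 11196 (211 on CAST). After the gene, the window at 49270001 held 1811 of 4051 in A6 (68 on CAST). In E2 it held 1082 of 4142 (24 on CAST). Flank ratios without these windows were not computed, so the trimmed gene is not compared with the flanks.

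Relative to both flanks together, the gene was at about the flank level on 129 and below it on CAST. The log2 of the gene's mean over the flank mean was -0.24 on 129 and -0.86 on CAST in A6. In E2 it was 0.014 on 129 and -1.31 on CAST. The difference between the alleles in this quantity, 129 minus CAST, was 0.62 in A6 and 1.32 in E2, with a mean of 0.97 ± 0.49 (SD, n = 2). In own reads it was 0.88 ± 0.52, and it was not computed without the window at 49110001. Contacts on CAST were lower over the gene than on either side, since 27.4 RPM lies below 63.7 and 35.7 RPM in A6, and 23.5 RPM lies below 88.1 and 28.2 RPM in E2. On 129 the means over the same stretches stepped down from before the gene to after it. They ran from 132 to 84.2 to 66.8 RPM in A6 and from 145 to 103 to 58.3 RPM in E2. From 49015001 to 49050000 the 129 level was below the flank mean, at 55.3 to 83.6 RPM in A6 and 76.3 to 112 RPM in E2.

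Among the annotated neighbours, Cip2a had 1303 own reads on 129 against 341 on CAST in A6, and 2559 against 860 in E2, for log2 ratios of 1.36 and 0.99. Dzip3 went the other way in its own reads, at -0.82 in A6 (1829 and 2174 reads) and -0.60 in E2 (3174 and 3210). Its deposited ratios had the opposite sign, at 0.92 and 0.56. The gene 1700026J12Rik split the clones, with -0.034 in A6 (796 and 549 reads) and 1.04 in E2 (1143 and 369). The small nuclear RNA gene Gm22576, inside Dzip3, also split them, at 1.21 and -0.14. Gm5407 held 0 own reads in all 4 columns, so its deposited ratios of 0.95 and 1.01 came from its surroundings.

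To place the gene within the wider domain, chromosome 16 up to 5 Mb from the bait was cut into 62 stretches of the same 155 kb. Any stretch reaching within 50 kb of the bait was left out, so none lies between 48225000 and 48430001. The stretches from 48430001 and from 48585001 overlap labelled intervals and were kept. Their log2 ratios were -0.83 and -0.82 in A6, and -0.36 and -1.46 in E2. By the mean log2 ratio of own reads Myh15 ranked 4 of 62. In A6 alone 3 stretches were higher, in E2 alone 6, and 2 were higher in both. Those 2 were 44815001 to 44970000, at 2.08 and 2.17, and 49515001 to 49670000, at 1.93 and 3.26. A higher own RPM on 129 in both clones was found in 54.1% of the other 61 stretches, whose median ratio was 0.32 in A6 and 0.35 in E2. By level, Myh15 ranked 11 and 9 of 62 on 129 (A6 and E2), but 22 and 29 on CAST.

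At nearly the same distance on the other side of the bait, the stretch from 47450001 to 47605000, centred 817.5 kb from it against 782.5 kb for Myh15, was also higher on 129. In A6 it had 63.0 own RPM on 129 against 13.6 on CAST, and in E2 59.3 against 25.9. The log2 ratios there were 2.22 and 1.20. Myh15 was above this stretch on 129 by a factor of 1.37 in A6 and 1.67 in E2. On CAST the factor was 2.17 in A6 and 0.951 in E2, so the clones did not give a common direction on CAST. Without the intervals Myh15 is centred 702.995 kb from the bait, nearer to the next stretch, 47605001 to 47760000, centred at 662.5 kb. That stretch differed from the first, at a log2 of -0.064 (A6) and 0.46 (E2). On 129 it had 101 own RPM in A6 and 77.9 in E2, and Myh15 stood at 0.852 and 1.27 times these values. On CAST it had 106 and 56.7, and Myh15 stood at 0.278 and 0.434 times these. The CAST columns held reads in the intervals from 48396806 and from 48581359, so the shorter distance is not that of CAST. Which stretch serves for comparison thus changes the direction on 129 in A6.

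**Figure D4:**
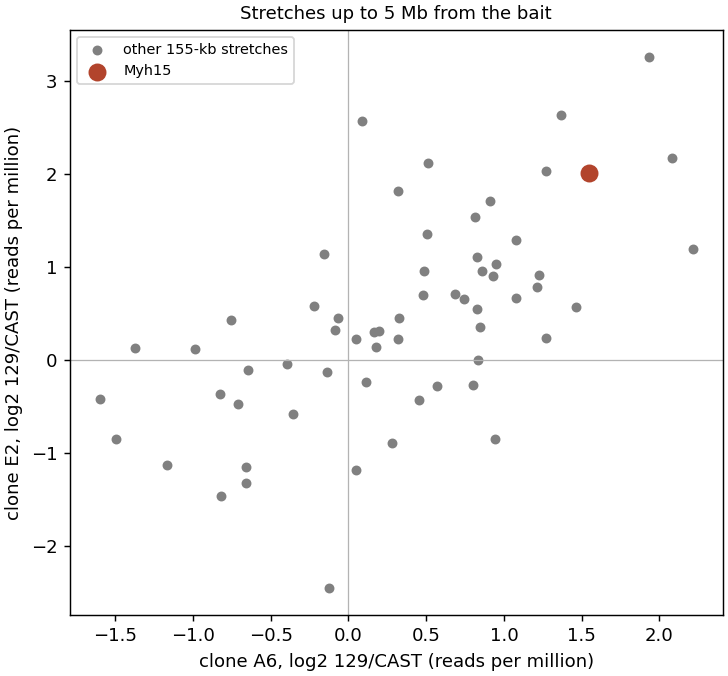
Log2 ratio of 129 to CAST in own RPM in clone A6 (horizontal) against clone E2 (vertical), 1 point for each of 62 stretches of 155 kb up to 5 Mb from the bait. Myh15 (large point, 1.55 and 2.01) lies among the highest, with 2 stretches above it in both clones.

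The protein-coding genes whose ratios in both clones were closest to those of Myh15 were found among the 42 with at least 10 own reads in every column and a centre up to 5 Mb from the bait. Likeness was the root mean square difference of the log2 ratios over the 2 clones. The closest was Cd96, a lymphocyte receptor gene, with ratios of 1.58 and 1.61 (difference 0.28). Cd200r2, of the CD200 receptor family, followed at 1.58 and 2.56 (0.39), then Slc35a5, of the nucleotide-sugar transporter family, at 0.76 and 1.75 (0.59). Cip2a was at a difference of 0.73, and Slc9c1, a sodium/proton exchanger gene of sperm, at 1.26 and 0.84 (0.85). Of these 5, only Cip2a lies on the same side of the bait. By the mean ratio Myh15 ranked 4 of the 42 genes, and 43.9% of the other 41 had a higher own RPM on 129 in both clones.

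The other 13 myosin heavy chain genes were read for comparison, and all but Myh11, a smooth muscle gene far upstream on chromosome 16, lie on other chromosomes. Own reads on at least 1 allele were present for 9 of the 13, and no column of any of them exceeded 581 reads. Of the 9 with reads, 7 had a higher own RPM on 129 in both clones and 2 a lower one. Leaving out Myh11, this was 7 of 8, against 45.2% of annotated genes with reads on autosomes other than chromosome 16. Of these 7, 5 lie in 1 cluster on chromosome 11. In Myh1, Myh2, Myh8 and Myh13, skeletal muscle genes of a cluster on chromosome 11, the CAST columns held 0 reads in both clones. Myh1 had 411 reads on 129 in A6 and 195 in E2. Myh14 and Myh9, non-muscle genes, had log2 ratios of 2.20 and 5.01, and of 0.26 and 0.79. Myh3, an embryonic muscle gene of that cluster, was also higher on 129 but held at most 3 reads in a column. Myh10, also non-muscle, was at -2.28 and -1.70, and Myh11 at -0.76 and -0.84. The cardiac genes Myh6 and Myh7, with Myh4 and Myh7b, held 0 reads in every column. With at least 10 reads in every column only Myh9, Myh10 and Myh11 were left, and 1 of these 3 was higher on 129.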

How the data were processed

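4C-seq values of 2 hybrid embryonic stem cell clones were taken from 1 table with a 129 and a CAST column for each. Per the file headers and values, the authors deposited RPM over 5-kb windows of mm10, as a running mean over 30 rows (15 before, 14 after). The submitters' processing notes name Bowtie2, mm9 and mm10. For versions and read filters, nothing is given in the sources used here. Neighbouring values differed by whole multiples of 1 step, so the running mean could be undone: 100% of values came out whole (tolerance 0.01 reads), and 0 windows were negative. The recovery was tested on simulated data. Recovered reads were 1937280 (129) and 1311580 (CAST) in A6, and 2397572 and 1603247 in E2. Ratios carry no pseudocount except window counts in own reads, with 1 read added. Computation used scipy 1.17.1, pandas 2.3.3 and numpy 2.4.6 under Python 3.11.15, with figures from matplotlib 3.10.9.

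The gene, lists and folds were chosen with earlier results of these data known. Named genes were Myh15, genes within the flanks, the 5 closest in ratio and 13 myosin heavy chain genes. No test was run, since the gene was chosen for its allele ratio. Alternatives covered the running mean, scaling, gene limits, window choice, fold, pseudocount and each clone left out. Gene names and limits came from RefSeq (GRCm38.p6). The inbred table was not used.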

Additional observations from a re-analysis of the deposited data

How the results depend on the processing

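Of 39 alternatives run on the 8 results, 29 gave values within 1 SD or, for counts, within 1.5 times, and 0 changed the sign of a ratio. Another 8, which leave out a clone from a ratio or share with an SD, are not counted, since with 2 clones they cannot move by 1 SD. The log2 ratio of own reads, 1.78, moved to 2.19 with the gene alone and to 2.19 without its most read window, which lies before the gene. It moved to 1.26 over windows read on both alleles. In settings chosen after seeing the data, it was 1.30 without the window most read on 129 and 1.26 without the windows read on 129 alone. The deposited ratio ran from 1.59 with 50 kb added on both sides to 1.93 over windows read on both alleles, and from 1.62 to 2.13 with a clone left out. For own reads the clones gave 1.55 to 2.01. The count of own-read windows at least 2-fold higher on 129, 4, became 8 at 1.5-fold and 6 to 7 with a clone left out. The highest deposited 129 window, at 49095001 in A6 and 49070001 in E2, moved to 49110001 in both clones with the running mean undone. The share of 129 reads in the most read window, 22.0%, became 36.1% with the gene alone, where that window is another one. The count of myosin genes higher on 129 fell from 7 to 1 with at least 10 reads in every column. Each ratio is taken within 1 clone, so the alleles are paired by clone in every value, and no test was run. With a mean of 24.6 to 29.4 own RPM per window on CAST, depth limits the CAST side: 1204 and 1231 reads carry it.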
